A study of Homo sapiens with 15 samples.

Results

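The genes described here are HOXA3, HOXA5, HOXA6, HOXA7, HOXA9, HOXA10 and HOXA11 of the HOXA cluster together with MEIS1 and PBX3, whose products act as partners of HOXA proteins. They were chosen by symbol, and each of the 9 matched 1 of the 57820 gene identifiers in the tables. RNA was sequenced from 15 libraries of 3 human acute myeloid leukemia (AML) cell lines that carried either the empty lentiviral vector pLKO or a short hairpin against the ubiquitin ligase RNF5 (shRNF5). MOLM-13, a line with the fusion MLL-AF9 and an internal tandem duplication of FLT3, had 3 pLKO and 2 shRNF5 libraries, U937, a line with the fusion CALM-AF10, had 2 of each, and HL-60, a line without an MLL fusion and with amplified MYC, had 3 of each. Each group is 1 established line under 1 construct, every control carried pLKO and no untransduced cells were analysed. The labels place the harvest 7 days after transduction and the series design 5 days, and which RNF5 hairpin was sequenced is not given in the sources used here. Nothing in the labels says whether replicates came from separate cultures, so p-values measure only the spread between these libraries.

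HOXA genes encode homeodomain transcription factors that lie side by side on chromosome 7 and are active in blood stem and progenitor cells, where their levels normally decline as myeloid cells mature. MEIS1 and PBX3 encode homeodomain proteins of the TALE class that bind DNA together with HOXA9 and HOXA10. In AML with rearranged MLL, and in AML with CALM-AF10, the fusion protein is known to keep HOXA9, HOXA10 and MEIS1 highly expressed, and HOXA9 and MEIS1 together transform myeloid progenitors in mice.

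The normalized read counts used below are whole numbers that the authors scaled by a factor per library within each line, so groups of 1 line can be compared directly and the lines cannot. A gene was called changed at an adjusted p-value under 0.1 (Benjamini-Hochberg over all genes tested in the line) and an absolute log2 fold change over 0.4, both from limma on log2(normalized read count + 1), a scale on which changes of weakly counted genes come out too small. In 12 of 15 libraries the spacing of the rounded values gave a depth, between 9700000 and 63800000 counted reads. In MOLM-13 the pLKO libraries had 9700000 to 15300000 and shRNF5 replicate 1 had 63800000, while shRNF5 replicate 2 was not resolved. The part of this difference in depth in the MOLM-13 results was not tested. RNF5 itself was strongly reduced, with log2 fold changes of -3.77 for MOLM-13, -3.64 for U937 and -3.25 for HL-60, and no shRNF5 library reached the level of a pLKO library of its line. All 7 myeloid markers were above 0 in each line, although MPO, the granule peroxidase, was only 32 to 96 in U937. In MOLM-13, the marker ANPEP was only 2 to 30 with pLKO and 16 to 53 with shRNF5. The markers MS4A1, CD3D, CD3E and EPCAM of other lineages were listed at 0 in every library.

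The 7 HOXA genes lie on the reverse strand of chromosome 7 of GRCh37. From the low to the high coordinate they are HOXA3 (27145803 to 27192202), HOXA5 (27180671 to 27183300), HOXA6 (27185015 to 27190222), HOXA7 (27193335 to 27197555), HOXA9 (27202057 to 27214799), HOXA10 (27210224 to 27219880) and HOXA11 (27220776 to 27224851). MEIS1 lies on the forward strand of chromosome 2 (66660584 to 66801001) and PBX3 on the forward strand of chromosome 9 (128509624 to 128729656). The values are counts per gene, not per transcript, and the read-through and antisense transcripts that share exons with called members are given with the results of those members.

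The 250 bases before the transcription start are shown for 5 members, namely HOXA9, HOXA11 and MEIS1, which fell in U937, HOXA10, which rose in HL-60, and PBX3, whose response differed between U937 and HL-60. HOXA3 fell in U937 too and has several starts, and its windows are not shown. They are RefSeq sequences of GRCh38.p14, written from 5′ to 3′ in the direction of transcription, and a match to 1 of 4 motifs on either strand is in capitals. For HOXA10, the start with the higher coordinate of its 2 starts in the table is shown.
HOXA9 (chr7:27165538-27165787, reverse strand): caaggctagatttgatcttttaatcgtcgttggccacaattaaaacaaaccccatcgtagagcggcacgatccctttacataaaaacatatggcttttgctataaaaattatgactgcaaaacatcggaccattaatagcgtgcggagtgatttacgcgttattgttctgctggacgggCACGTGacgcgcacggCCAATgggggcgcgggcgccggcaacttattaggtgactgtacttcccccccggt
HOXA10 (chr7:27179862-27180111, reverse strand): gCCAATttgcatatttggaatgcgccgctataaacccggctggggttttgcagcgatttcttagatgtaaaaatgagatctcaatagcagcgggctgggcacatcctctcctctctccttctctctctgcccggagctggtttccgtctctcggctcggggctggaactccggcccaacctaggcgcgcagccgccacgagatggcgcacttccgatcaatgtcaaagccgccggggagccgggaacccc
HOXA11 (chr7:27185233-27185482, reverse strand): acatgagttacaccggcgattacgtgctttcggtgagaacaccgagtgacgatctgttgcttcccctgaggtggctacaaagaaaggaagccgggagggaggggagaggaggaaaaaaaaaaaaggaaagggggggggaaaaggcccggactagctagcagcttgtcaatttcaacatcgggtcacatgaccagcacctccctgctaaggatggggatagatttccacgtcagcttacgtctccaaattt
MEIS1 (chr2:66434875-66435124, forward strand): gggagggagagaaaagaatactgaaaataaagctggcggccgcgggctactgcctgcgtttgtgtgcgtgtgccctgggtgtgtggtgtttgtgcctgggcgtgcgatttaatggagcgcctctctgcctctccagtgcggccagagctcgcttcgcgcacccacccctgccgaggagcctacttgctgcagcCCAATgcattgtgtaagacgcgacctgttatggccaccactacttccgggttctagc
PBX3 (chr9:125747933-125748182, forward strand): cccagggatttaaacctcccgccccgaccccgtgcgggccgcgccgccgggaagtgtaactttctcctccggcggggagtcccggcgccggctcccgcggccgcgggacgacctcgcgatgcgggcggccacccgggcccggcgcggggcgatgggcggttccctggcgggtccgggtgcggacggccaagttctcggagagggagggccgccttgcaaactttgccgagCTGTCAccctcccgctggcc

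The motifs sought were the HOX-PBX composite site TGATNNAT, the MEIS site TGACAG, the general promoter element CCAAT and the MYC-type E-box CACGTG, and none of the 4 overlapped another in these windows. The HOX-PBX letters occurred in 0 of the 15 windows that the table holds for 8 of the members, and in 6.47% of all 35116 promoters. HOXA3 and HOXA10 have more than 1 of these windows each, HOXA3 the most, so the windows are not separate genes. The MEIS letters occurred in 1 window, that of PBX3, and in 13% of all promoters. CCAAT stood in 7 of the 15 windows, which belong to HOXA3, HOXA6, HOXA7, HOXA9, HOXA10 and MEIS1, and in 32.0% of all promoters. The E-box stood in 2 windows, 1 of them that of HOXA9, and in 6.34% of all promoters. CpG dinucleotides numbered 20 before HOXA9, 19 before HOXA10, 11 before HOXA11, 16 before MEIS1 and 36 before PBX3, against a median of 11 over all promoters.

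The lines differed in which of these genes they expressed. All 9 were above 0 in MOLM-13 and U937, whereas HOXA3, HOXA6, HOXA9 and MEIS1 were listed at 0 in all 6 HL-60 libraries, which leaves 5 genes measured there. A gene listed at 0 had failed the authors' filter on low counts, so this places the 4 genes under that filter in HL-60 and does not give their level. The next values are scaled so that each library sums to 1000000 (CPM), and since each line was normalized on its own they describe the lines without a test.

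HOXA9 was at 348 ± 69.9 CPM (SD, n = 2) in U937 with pLKO, 120 ± 14.2 (n = 2) in U937 with shRNF5, 93.9 ± 14.7 (n = 2) in MOLM-13 with shRNF5 and 83.4 ± 11.2 (n = 3) in MOLM-13 with pLKO. The ranges of the MOLM-13 groups overlapped, whereas the U937 groups stood apart from each other and from MOLM-13. MEIS1 took the same order, with 359 ± 10.7 and 188 ± 85.4 CPM in the pLKO and shRNF5 libraries of U937 and 63.4 ± 1.92 and 57.4 ± 11.7 in the shRNF5 and pLKO libraries of MOLM-13. HOXA10 was at 327 ± 21.8 and 220 ± 27.0 CPM in U937 with pLKO and shRNF5, at 112 ± 21.2 and 106 ± 10.7 in MOLM-13 and at 10.9 ± 1.2 and 16.6 ± 2.10 in HL-60, and within this order the MOLM-13 groups alone overlapped. These 3 genes were thus highest in U937 with the control vector.

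PBX3 had another order, highest in MOLM-13 at 135 ± 3.89 CPM with shRNF5 and 121 ± 28.3 with pLKO. It was at 35.2 ± 7.44 and 27.1 ± 4.10 in U937 with pLKO and shRNF5, and at 23.8 ± 2.28 and 18.5 ± 1.1 in HL-60 with shRNF5 and pLKO. The U937 shRNF5 range overlapped both the U937 pLKO range and the HL-60 shRNF5 range, and the HL-60 groups did not overlap each other. HOXA11 ran from 86.1 ± 29.1 CPM in U937 with pLKO to 13.6 ± 2.80 in HL-60 with pLKO, with the U937 shRNF5 libraries, at 39.6 to 48.1, overlapping the MOLM-13 pLKO libraries at 24.2 to 39.9.

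Of the remaining HOXA genes, HOXA5 lay between 14.8 and 18.5 CPM in MOLM-13, between 11.9 and 20.9 in U937 with pLKO, at 9.95 and 10.3 in U937 with shRNF5 and between 4.63 and 7.69 in HL-60. HOXA7 was the 1 HOXA gene that was lower in U937, at 4.43 to 7.16 CPM, than in MOLM-13, at 9.91 to 11.3, in every library, and at 6.44 to 10.5 in HL-60 it overlapped both. HOXA3 reached 8.90 to 15.7 CPM in MOLM-13, and HOXA6 stayed between 1.62 and 5.26 in MOLM-13 and U937.

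**Figure D1:**
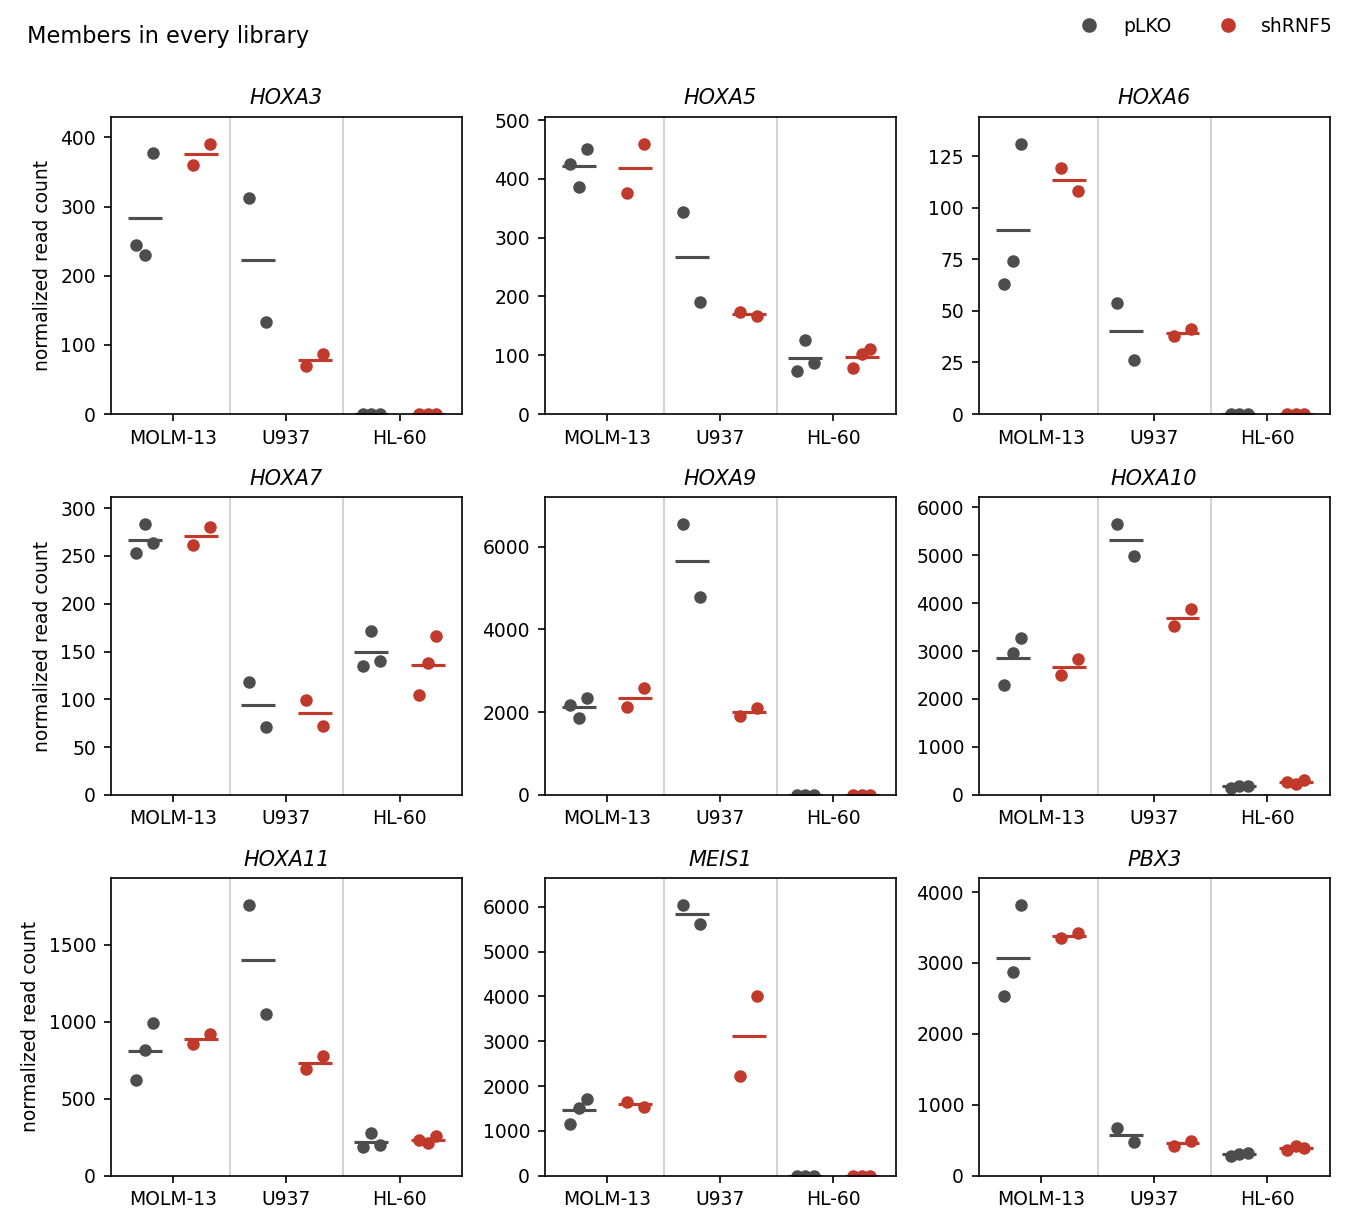
Normalized read counts (vertical axes, linear and starting at 0) of the 9 genes in every library of MOLM-13, U937 and HL-60; each point is 1 library, black for pLKO and red for shRNF5, and each line is a group mean. In U937 the shRNF5 points of HOXA3, HOXA5, HOXA9, HOXA10, HOXA11 and MEIS1 lie below both pLKO points, and HOXA3, HOXA6, HOXA9 and MEIS1 lie at 0 in HL-60.

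Whether RNF5 knockdown changes this group was asked first in U937, where it moved most. With shRNF5, 4 of the 9 genes fell and none rose: HOXA9, the central HOXA factor of AML, HOXA3, HOXA11 and MEIS1. Over all 13165 genes tested in U937, 15.7% were called in either direction and 8.74% were called lower. The median log2 fold change of the 9 genes was -0.59, against 0 over all genes, and 8 of the 9 were negative.

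HOXA9 had normalized read counts of 6540 and 4776 in the U937 pLKO libraries and of 1918 and 2099 in the shRNF5 libraries. The groups lay far apart, and the mean with shRNF5 was 0.355 times that with pLKO. The log2 fold change was -1.48 (SE 0.25, 95% interval -2.03 to -0.92, limma adjusted p = 0.018). HOXA9 shares 13.1% of its exonic bases with a read-through transcript on its own strand (RP1-170O19.20) and 13.9% with the antisense gene HOXA10-AS, which had counts of at most 46 and 170 in any library.

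MEIS1, the TALE partner that binds with HOXA9, had counts of 6034 and 5623 with pLKO and of 2225 and 4012 with shRNF5. Both shRNF5 libraries were lower, but they differed from each other by more than the pLKO libraries did. The log2 fold change was -0.96 (SE 0.30, 95% interval -1.61 to -0.31, adjusted p = 0.074 by limma). MEIS1 is on another chromosome than the HOXA cluster, and the antisense genes that share its exons, MEIS1-AS2 and MEIS1-AS3, were listed at 0.

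HOXA11, a gene of the 5′ end of the cluster best known for its part in limb and uterine development, had counts of 1758 and 1049 with pLKO and of 692 and 779 with shRNF5. The log2 fold change was -0.89 (SE 0.29, limma adjusted p = 0.089). It shares 27.2% of its exonic bases with the antisense gene HOXA11-AS, which had counts of 1864 and 1646 in U937 with pLKO and fell as well, to 502 and 868 with shRNF5. The strand setting of the authors' counting is not given in the sources used here, so reads of HOXA11 and of HOXA11-AS in the shared part cannot be told apart.

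HOXA3, from the other end of the cluster, had counts of 313 and 133 with pLKO and of 69 and 87 with shRNF5. The pLKO libraries differed from each other by more than the shRNF5 libraries did, and both stood above them. The log2 fold change was -1.39 (SE 0.46, limma adjusted p = 0.091). The transcripts that share exons with HOXA3 were listed at 0 in every library.

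Of the 5 genes that did not pass the test in U937, HOXA10 and HOXA5 had groups that did not overlap. Whether groups overlap is description only, here and in the other lines, since the share of all genes with separate groups is not given. HOXA10, which like HOXA9 binds DNA with PBX and MEIS proteins, had counts of 5641 and 4990 with pLKO and of 3513 and 3869 with shRNF5, a log2 fold change of -0.53 (95% interval -1.04 to -0.01, limma adjusted p = 0.180). HOXA5 had counts of 344 and 190 with pLKO and of 174 and 166 with shRNF5, a log2 fold change of -0.59 (95% interval -1.42 to 0.25, limma adjusted p = 0.337). The other members were PBX3 at -0.31 (-0.96 to 0.33), HOXA7 at -0.12 (-1.11 to 0.88) and HOXA6 at 0.07 (-1.19 to 1.33), and these intervals are wide enough to hold changes in either direction.

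The calls in U937 rested on 2 libraries per group, and leaving out 1 of them changed the count. HOXA3, HOXA9 and HOXA11 were called without pLKO replicate 3, and 0 members were called without pLKO replicate 2, shRNF5 replicate 1 or shRNF5 replicate 3, where limma gave 1, 1 and 3 of them an unadjusted p under 0.05. Over these fits the log2 fold change stayed negative for the 4 called genes, between -1.70 and -1.25 for HOXA9, -1.39 and -0.54 for MEIS1, -2.0 and -0.77 for HOXA3 and -1.26 and -0.51 for HOXA11, and the limma adjusted p-value of HOXA9 ran from 0.062 to 0.519. At an adjusted p-value under 0.05, HOXA9 alone was called.

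The U937 pLKO libraries also differed from each other in these genes. Replicate 2 was higher than replicate 3 for 9 of the 9 members, whereas over all 13165 genes it was the higher one for 49.8%. Between the shRNF5 libraries, replicate 3 was the higher one for 7 of the 9, against 50.6% of all genes. The part of this difference between control libraries in the results was not tested beyond the fits that leave out a library.

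**Figure D2:**
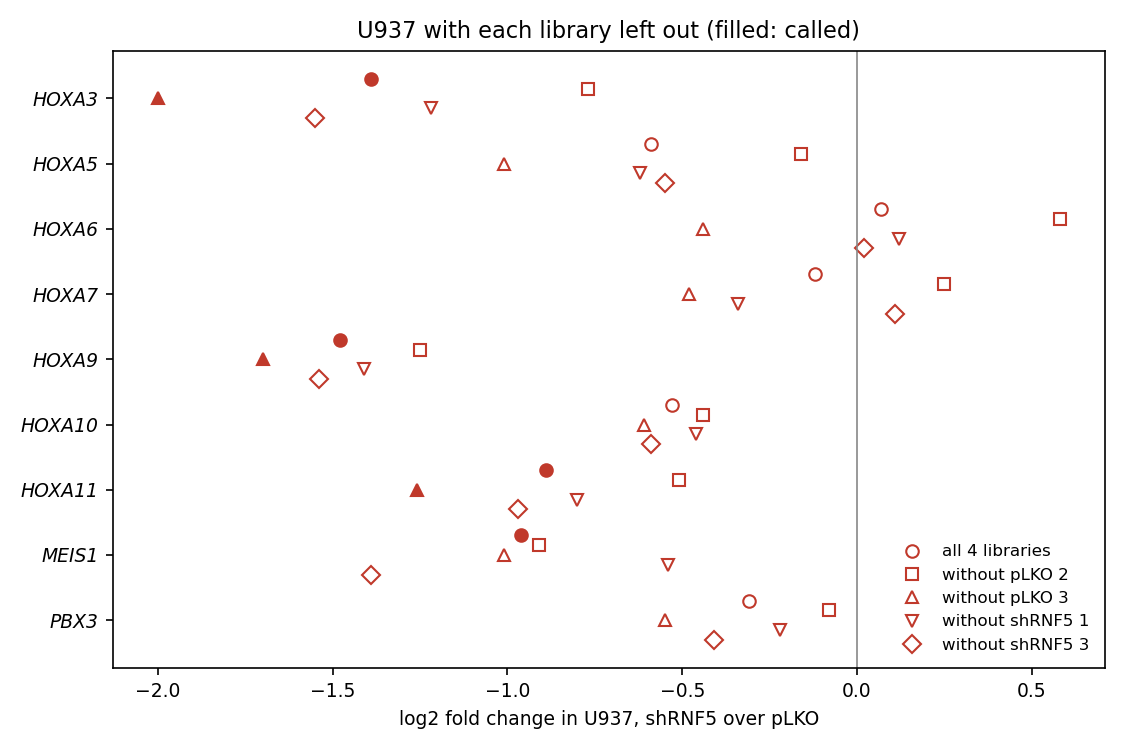
Log2 fold changes in U937 (horizontal axis, shRNF5 over pLKO) of each gene (vertical axis) from all 4 libraries (circles) and from the fits without 1 library (other symbols), filled where the gene was called. HOXA3, HOXA9, HOXA11 and MEIS1 stay below 0 in all 5 fits, and filled symbols occur with all libraries and without pLKO replicate 3 only.

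In MOLM-13, 0 of the 9 genes were called by limma, where 2.04% of all 13026 genes were, and 0 of the 9 had an unadjusted p under 0.05. Their log2 fold changes lay between -0.08 and 0.44 with a median of 0.15, against 0.01 over all genes, and no member had groups that did not overlap. HOXA9 had counts of 2169, 1849 and 2334 with pLKO and of 2119 and 2590 with shRNF5, a log2 fold change of 0.15 with a 95% interval of -0.22 to 0.53. That interval does not reach the fall measured in U937.

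MEIS1 in MOLM-13 had counts of 1159, 1502 and 1711 with pLKO and of 1644 and 1542 with shRNF5. PBX3 had 2536, 2868 and 3814 with pLKO and 3352 and 3418 with shRNF5. For both, the shRNF5 libraries lay within the range of the pLKO libraries, with log2 fold changes of 0.15 (95% interval -0.28 to 0.58) and 0.16 (-0.26 to 0.59). HOXA10, with a log2 fold change of -0.08 (-0.49 to 0.33), and HOXA11, with 0.16 (-0.33 to 0.65), also overlapped.

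Of the remaining HOXA genes of MOLM-13, HOXA5 at -0.02 (95% interval -0.44 to 0.41) and HOXA7 at 0.02 (-0.41 to 0.45) had intervals that reach past the fold limit of 0.4 on either side. HOXA3, with counts of 245, 230 and 377 against 360 and 391, had the largest difference of the 9 at 0.44 (-0.14 to 1.01, limma adjusted p = 0.40), and HOXA6 followed at 0.41 (-0.39 to 1.22). The pLKO replicate 3, with 9700000 estimated reads the shallowest library of those resolved, was the highest of the 3 pLKO libraries for 8 of the 9 genes, against 32.4% of all genes.

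In HL-60, HOXA10 rose and was the 1 member called among the 5 tested, where 25.9% of all 12570 genes were called in either direction and 13.6% were called higher. Its counts were 152, 192 and 186 with pLKO and 266, 235 and 317 with shRNF5. Every shRNF5 library was above every pLKO library, and the log2 fold change was 0.62 (SE 0.18, 95% interval 0.23 to 1.01, limma adjusted p = 0.034). The call was lost without pLKO replicate 1 (adjusted p = 0.115 by limma) and without shRNF5 replicate 3 (adjusted p = 0.123). HOXA10 shares 16.4% of its exonic bases with HOXA10-AS, which was listed at 0 in HL-60. It shares 9.93% with the read-through transcript RP1-170O19.20, which had counts of at most 46 in any library.

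PBX3 in HL-60 had counts of 279, 302 and 320 with pLKO and of 359, 425 and 389 with shRNF5. The groups did not overlap, and the log2 fold change of 0.38 (95% interval 0.06 to 0.70, limma adjusted p = 0.087) fell short of the fold limit of 0.4. HOXA11 at 0.10 (-0.31 to 0.52), HOXA5 at 0.05 (-0.50 to 0.59) and HOXA7 at -0.14 (-0.61 to 0.33) had overlapping groups. The HL-60 level of HOXA10 was low beside that in the other lines, as given above, and its rise left it at 317 or below.

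**Figure D3:**
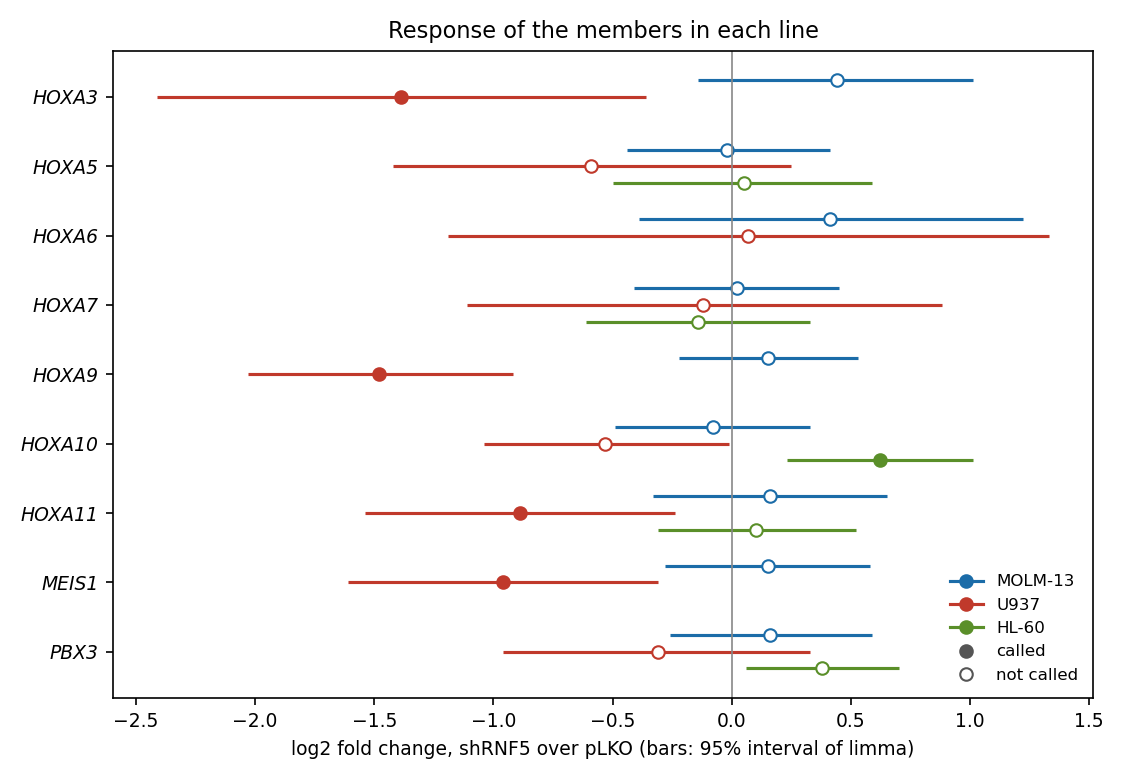
Log2 fold changes of shRNF5 over pLKO (horizontal axis) with the 95% intervals of limma for each gene (vertical axis) in MOLM-13 (blue), U937 (red) and HL-60 (green), filled where called. The U937 points of HOXA3, HOXA9, HOXA11 and MEIS1 are filled on the left of 0 and the HL-60 point of HOXA10 on the right, and genes listed at 0 in HL-60 have no green point.

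A difference between lines was tested as an interaction, in 1 fit over all 15 libraries, for the 5 members above 0 in all 3 lines. Between U937 and HL-60, where 37.2% of the 11072 genes differed, HOXA10, HOXA11 and PBX3 did. HOXA10 differed by -1.14 on the log2 scale (U937 minus HL-60, SE 0.26, limma adjusted p = 0.0053), HOXA11 by -0.99 (SE 0.34, adjusted p = 0.042) and PBX3 by -0.69 (SE 0.27, adjusted p = 0.063). A share of 3 in 5 stands beside a background that is itself large. When each library was left out in turn, HOXA10 passed in 15 of 15 fits (-1.25 to -1.03), HOXA11 in 13 of 15 (-1.36 to -0.62, limma adjusted p up to 0.210) and PBX3 in 11 of 15 (-0.93 to -0.46, limma adjusted p up to 0.245). HOXA11 was lost without U937 pLKO replicate 2 or shRNF5 replicate 1, and PBX3 without either of these or without HL-60 pLKO replicate 1 or shRNF5 replicate 2.

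Between MOLM-13 and U937, where 15.4% of genes differed, HOXA11 alone of the 5 did, by 1.05 (MOLM-13 minus U937, SE 0.36, limma adjusted p = 0.081). This call was kept in 8 of the 15 fits without 1 library (0.67 to 1.42, limma adjusted p up to 0.310) and was lost without the mean-variance trend (adjusted p = 0.102). The libraries whose absence ended it were pLKO replicates 1 and 2 and both shRNF5 replicates of MOLM-13, pLKO replicate 2 and shRNF5 replicate 1 of U937 and pLKO replicate 3 of HL-60. For the pair of MOLM-13 and HL-60, where 8.82% differed, no member passed, and HOXA10, the 1 with an unadjusted p under 0.05, came closest at -0.70 (95% interval -1.22 to -0.19, limma adjusted p = 0.110). HOXA9, HOXA3, HOXA6 and MEIS1 could not enter this fit because of their 0 values in HL-60. In a fit of the MOLM-13 and U937 libraries alone, added after the data had been seen, 4.25% of 11791 genes differed between these lines. HOXA9 passed there, with a difference of 1.63 (SE 0.28, limma adjusted p = 0.057), while HOXA3 at 1.82 (SE 0.53, adjusted p = 0.107), MEIS1 at 1.11 (SE 0.36, adjusted p = 0.130) and HOXA11 at 1.05 (SE 0.38, adjusted p = 0.155) did not. The call of HOXA9 was kept in 4 of 9 fits without 1 library (1.40 to 1.86, limma adjusted p 0.0059 to 0.301), and was lost without pLKO replicate 2 or either shRNF5 replicate of MOLM-13 and without pLKO replicate 2 or shRNF5 replicate 1 of U937. The control libraries of a line enter every one of these differences, which are therefore not independent of each other.

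Among the other transcripts of the HOXA cluster, 4 of the 8 tested in U937 fell and none rose (8.74% of all genes fell), with a median log2 fold change of -0.89. They were HOXA4 at -2.28 (counts of 133 and 36 against 13 and 14), the myeloid long noncoding RNA HOTAIRM1 at -1.50 (147 and 126 against 33 and 68), HOXA11-AS at -1.41 and HOXA13 at -0.79. HOXA13, chosen here after its value was seen, had counts of 3938 and 3170 with pLKO and of 1896 and 2198 with shRNF5. In the order along the chromosome, HOXA5, HOXA6 and HOXA7, which were not called, lie between HOXA3 and HOXA9.

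In HL-60, where 13.6% of all genes rose, 2 of the 6 tested cluster transcripts did, namely HOTTIP, a noncoding RNA beyond HOXA13, at 0.90 (20, 18 and 16 against 38, 31 and 34) and HOXA11-AS at 0.64 (53, 65 and 61 against 87, 94 and 98). In MOLM-13, 0 of 8 were called by limma, beside 2.04% of all genes, and 1 had an unadjusted p under 0.05. HOXA10, HOXA11-AS and HOTTIP lie at 1 end of the cluster, and HOXA11 and HOXA13 of the same end were not called in HL-60.

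**Figure D4:**
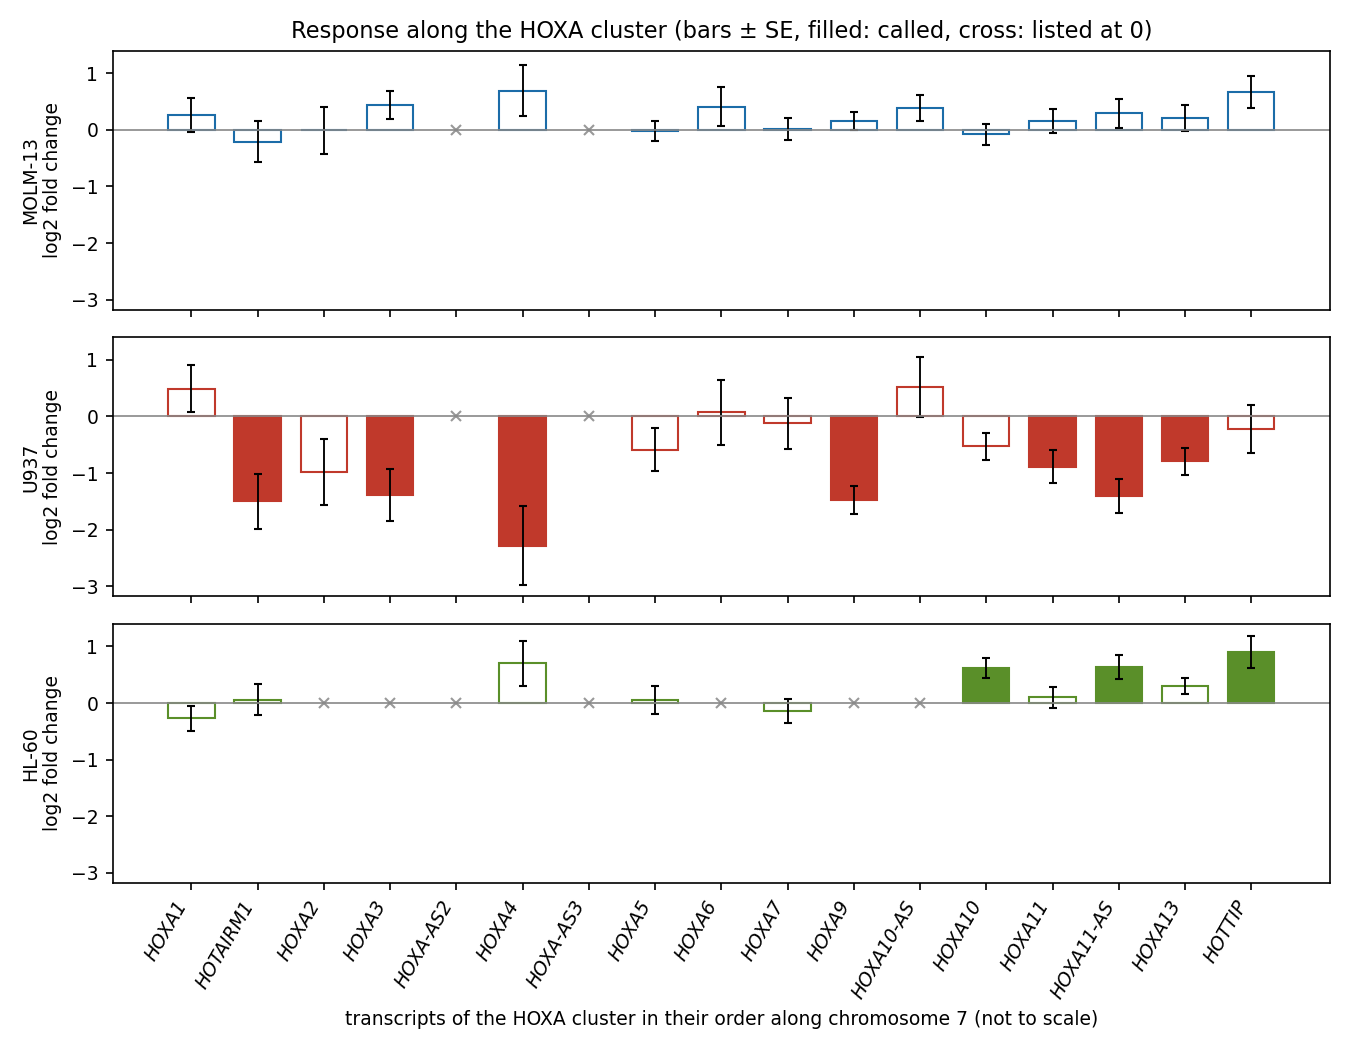
Log2 fold changes of shRNF5 over pLKO (vertical axes, bars with SE) for 17 transcripts in their order along chromosome 7 (horizontal axis, not to scale) in MOLM-13, U937 and HL-60, filled where called, with a cross where a transcript was listed at 0. In U937 the filled bars, all downward, are HOTAIRM1, HOXA3, HOXA4, HOXA9, HOXA11, HOXA11-AS and HOXA13, and in HL-60 the filled bars, all upward, are HOXA10, HOXA11-AS and HOTTIP.

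Of the genes that flank the cluster, 1 of 7 was called in MOLM-13, 2 of 7 in U937 and 1 of 7 in HL-60, where 2.04%, 15.7% and 25.9% of all genes were. In U937, those called, both lower, were HIBADH, a mitochondrial enzyme of valine breakdown, at -0.99 and the autophagy receptor TAX1BP1 at -0.72, which lie on the HOXA11 side. On the HOXA3 side, SNX10, a sorting nexin of endosomes, fell in MOLM-13 (-1.23) and in HL-60 (-0.70), where no HOXA gene fell, and had -0.34 in U937 (limma adjusted p = 0.449). The remaining neighbours were not called in any line.

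Of the HOXB, HOXC and HOXD genes, 28 in number, between 2 and 5 were above 0 in a line. HOXC4 fell in U937, from 125 and 122 to 27 and 43 (log2 fold change -1.83, limma adjusted p = 0.047), and HOXC10 rose in HL-60, from 39, 60 and 22 to 107, 87 and 89 (1.31, limma adjusted p = 0.022). Each was the 1 gene called, of 5 tested in U937 and of 2 in HL-60, beside 15.7% and 25.9% of all genes. In MOLM-13, 0 of 4 were called by limma, beside 2.04%, and 2 had an unadjusted p under 0.05. The median log2 fold change of these 4 genes was 0.69. Of the other TALE homeobox genes, limma called 0 of 5 (MOLM-13), 0 of 7 (U937) and 0 of 5 (HL-60), beside the same shares of all genes. Of them 0, 1 and 0 had an unadjusted p under 0.05 by limma.

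The proteins through which MLL fusions and CALM-AF10 act on HOXA genes, such as menin, DOT1L and the elongation factors fused to MLL, had 22 genes tested in each line. In U937, 3 of the 22 (13.6%, beside 15.7% of all genes) rose and none fell, AFF1 at 0.78, ELL at 1.05 and RBBP5, a core subunit of MLL complexes, at 0.79. In HL-60, 5 of the 22 (22.7%, beside 25.9% of all genes) fell and none rose, among them KMT2A, the MLL gene itself, at -0.89, with counts of 6418, 3061 and 4218 against 2571, 3329 and 1530 that overlapped. In MOLM-13, 0 of 22 were called by limma, beside 2.04% of all genes, and 6 had an unadjusted p under 0.05. The share of all genes under that unadjusted limit is not given here.

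Genes that the literature names as targets of HOXA9 or MEIS1 in leukemia did not share 1 direction. The called share was 9.09% of 11 tested in MOLM-13, 30.8% of 13 in U937 and 41.7% of 12 in HL-60, beside 2.04%, 15.7% and 25.9% of all genes. In U937, where HOXA9 and MEIS1 fell, 3 of the 13 rose and 1 fell: CCND3, a cyclin of the G1 phase, rose by 2.18 on the log2 scale (1956 and 1724 against 10502 and 6567), TRIB2, a pseudokinase, by 1.72 and ID2, an inhibitor of basic helix-loop-helix factors, by 1.51, while SOX4 fell by 1.07. In HL-60, where HOXA9 and MEIS1 were listed at 0, 3 of 12 rose, CCND3 (0.77) and ID2 (0.91) among them, and 2 fell, SOX4 (-0.48) among them. In MOLM-13, where no member was called, 1 of 11 was called, SOX4, which fell by 0.64 (3355, 3100 and 3453 against 1937 and 2308, limma adjusted p = 0.098). SOX4 was thus called lower in all 3 lines, with and without a called fall of HOXA9.

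The levels of 7 myeloid markers were read beside these values. In U937, where 15.7% of all genes were called, 1 of the 7 was, CSF3R (the G-CSF receptor), which fell by 0.97 on the log2 scale. The summed level of the list was 13379 to 16687 with pLKO and 13179 to 14307 with shRNF5. In HL-60, where 25.9% of all genes were called, MPO (0.60) and PTPRC (0.42) rose and CD33 fell by 0.45. The summed level was 117082 to 141920 with pLKO and 151751 to 219901 with shRNF5. MPO, the peroxidase of neutrophil granules, made up most of that sum, at 105563 to 130372 with pLKO and 141317 to 207430 with shRNF5, and without it the summed level was 11519 to 11876 and 10434 to 12886. The groups overlapped there. In MOLM-13, where 2.04% of all genes were called, limma called 0 of 7 (1 at an unadjusted p under 0.05). The summed levels overlapped, at 14248 to 18791 and 15381 to 18004. The part of these marker levels in the HOXA values was not tested, and fewer cells of a type and less RNA per cell cannot be told apart in bulk RNA.

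The genes nearest to a member in pattern were sought over the 6 group means of log2(CPM + 1), each centred on its own mean, among 14906 genes above 0 in any library. HOXA9 and MEIS1 were each other's nearest gene, with a root mean square distance of 0.39 log2 units. Next to HOXA9 came CES1 (0.71) and C12orf23 (0.74), and next to MEIS1 came GPR124 (0.65) and ANXA2 (0.70). Much of this likeness lies in the contrast between the lines, since HOXA9, MEIS1, C12orf23 and GPR124 were listed at 0 in HL-60. C12orf23 fell in U937 too, from 1938 and 1692 to 844 and 890 (log2 fold change -1.06, limma adjusted p = 0.034). GPR124, with 12325 and 7032 against 10444 and 9093, was not called there, nor were CES1 at -0.04 and ANXA2 at 0.61. In HL-60, where 13.6% of all genes rose, CES1 (3.77) and ANXA2 (1.56) did, with counts of at most 62 and 104.

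The other members stood farther from HOXA9 in pattern, at 1.68 for HOXA10, 1.87 for HOXA3, 2.53 for HOXA6, 2.58 for HOXA11, 2.86 for HOXA5, 2.94 for PBX3 and 3.54 for HOXA7. The distance of HOXA7 was the largest of the 8. PBX3 had its nearest genes in PDGFA (0.18), PRSS12 (0.22) and UBXN8 (0.22), which were high in MOLM-13 and low in the other lines. No p-value is given for these distances, since the 6 points come from 3 lines and share their libraries.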

How the data were processed

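RNA-seq libraries of MOLM-13, U937 and HL-60 were grouped by line and construct as the sample labels give them. Per the study's methods the authors mapped the reads with STAR onto hg19, obtained gene counts from featureCounts, and used edgeR, run by SARTools, to normalize. What was deposited is a score, namely counts that the authors scaled by a factor per library within each line and rounded to whole numbers, with filtered genes at 0. They are not raw counts, so no count model was run. The library kit is a 3′-priming one in the labels but a directional poly(A) one in the methods, so the part of a transcript that reads cover is not settled.

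Each line was fitted separately with limma 3.58.1 in R 4.3.3 on log2(value + 1), with a mean-variance trend, over genes above 0 in any of its libraries. Called genes had a Benjamini-Hochberg adjusted p under 0.1 and changed by over 0.4 on the log2 scale. Differences between lines were tested in 1 fit over all 15 libraries. The fits and the depth estimate were tested on simulated data. Depth, resolved in 12 libraries, limits genes with low values most, and no counting interval is given because the values are not counts. All libraries differed in their values.

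The members and gene lists were chosen with earlier results of these data known. Named in the text were RNF5, all members, up to 4 called genes per related list by largest change, the 3 genes nearest in pattern to HOXA9, MEIS1 and PBX3, and genes overlapping a member. HOXA13, the marker ANPEP and the lineage markers listed at 0 were chosen after their values were seen. Positions and overlaps came from GENCODE on GRCh37, matched by identifier, and promoters from RefSeq on GRCh38.p14, which held 8 of the 9 members. Values of a few genes are not reported. HOXA10-AS was matched by identifier to the name HOXA-AS4. Alternatives were other pseudocounts (0.5, 10), a minimum mean value (50), no trend, 1 fit over all libraries, other scaling, an adjusted p under 0.05, a replicate block and leaving out each library. A fit of MOLM-13 and U937 alone and a block with another numbering in MOLM-13 were chosen after seeing the data.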

Additional observations from a re-analysis of the deposited data

Results flagged for a closer look

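The responses of 4 members to shRNF5 differed between lines by the test of the difference itself, each as the log2 fold change of the first line minus that of the second. Over all genes tested, 37.2% differed between U937 and HL-60 and 15.4% between MOLM-13 and U937. In the fit of MOLM-13 and U937 alone, 4.25% did. HOXA11, given next from the fit over all libraries, did not pass in that fit (limma adjusted p = 0.155). HOXA11 differed by 1.05 between MOLM-13 and U937 (95% interval 0.29 to 1.81, limma adjusted p = 0.081), a call kept in 8 of 15 fits without 1 library. HOXA11 differed by -0.99 between U937 and HL-60 (-1.71 to -0.26, limma adjusted p = 0.042), kept in 13 of 15. HOXA10 differed by -1.14 between U937 and HL-60 (-1.69 to -0.60, limma adjusted p = 0.0053), where the shRNF5 libraries were all below the pLKO libraries in U937 and all above them in HL-60, and this was kept in 15 of 15. PBX3 differed by -0.69 between U937 and HL-60 (-1.26 to -0.13, limma adjusted p = 0.063), kept in 11 of 15, although it was called in neither line alone. HOXA9 differed by 1.63 between MOLM-13 and U937 (1.02 to 2.24, limma adjusted p = 0.057) in the fit of those lines alone, which was added after the data had been seen, and was kept in 4 of 9 fits without 1 library.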

How the results depend on the processing

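In U937 the count of called members went from 4 to 1 at an adjusted p under 0.05 and to 1 without the mean-variance trend, HOXA9 in both cases, and stayed at 4 or 5 under the other settings, of which the minimum mean value left HOXA6 out. It ran from 0 to 3 when 1 library was left out, in HL-60 from 0 to 2 against 1, and in MOLM-13 it was 0 throughout. The members whose response differed between lines numbered 3 under both other settings and 1 to 4 without 1 library. Leaving out a library leaves fewer samples, and the cause of the other shifts was not tested.

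The related lists held 2 called genes for MOLM-13, 15 for U937 and 17 for HL-60. At an adjusted p under 0.05 these became 1, 7 and 11, without the trend 1 in MOLM-13 and 3 in U937, and with 1 fit over all libraries 24 in U937. Without 1 library they ran from 0 to 5 in MOLM-13, 0 to 10 in U937 and 10 to 19 in HL-60.

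The numbers in the labels do not settle whether the replicates were paired. With 2 shRNF5 libraries in MOLM-13, their deviations from their mean are mirror images, which limits what the correlations can show. Deviations of same-numbered libraries correlated at -0.133 and -0.447 in MOLM-13 and at 0.386, 0.120 and -0.0466 in HL-60, and not every sample correlated best with its own number. With a replicate block 0 members were called in MOLM-13 and 1 in HL-60, as without it, and 6 and 19 genes of the related lists. Over all genes that block called 738 in MOLM-13, against 266 without it, and 3580 in HL-60, against 3251. The deposited tables number the MOLM-13 shRNF5 libraries differently from the labels, as 2 and 3 for replicates 1 and 2, and by those numbers the pairs correlated at 0.447 and 0.266. A replicate block with that numbering, chosen after seeing the data, called 0 members, 19 genes of the related lists and 2495 of all genes in MOLM-13, against 266 without a block, and whether it pairs the libraries cannot be told from the sources used here. No paired analysis was possible in U937 because its groups share 1 number only.

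Of 635 alternative values of single members, 535 kept their direction and side of the threshold, 49 fell short of it, 14 passed it and 37 changed sign. The values that changed sign were not called in either fit. With the block HOXA5 and HOXA10 in MOLM-13 came to 0.03 each, and with the block of the other numbering HOXA7 and HOXA11 came to -0.02 each and MEIS1 to -0.01. Without 1 library the log2 fold change in MOLM-13 ran from -0.16 to 0.13 for HOXA5, -0.03 to 0.07 for HOXA7, -0.23 to 0.03 for HOXA10, -0.02 to 0.32 for HOXA11 and -0.01 to 0.27 for MEIS1. In U937 it ran from -0.44 to 0.58 for HOXA6 and -0.48 to 0.25 for HOXA7, and in HL-60 from -0.12 to 0.26 for HOXA5 and -0.30 to 0.03 for HOXA7. Differences between MOLM-13 and U937 ran from -0.17 to 0.86 for HOXA6 and -0.23 to 0.50 for HOXA7, with -0.09 for HOXA7 without U937 shRNF5 replicate 3. Those between MOLM-13 and HL-60 ran from -0.28 to 0.10 for HOXA5, -0.01 to 0.32 for HOXA7 and -0.12 to 0.22 for HOXA11, and that of HOXA7 between U937 and HL-60 from -0.33 to 0.39. With 2 libraries per group in U937, a lone remaining library was assumed to vary like the other group.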
